A study of Mus musculus with 8 samples.

Results

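The genes described here build peroxisomes or carry out their fatty acid oxidation in mouse brown adipose tissue, a fat that burns lipid to make heat. They were chosen by name: 16 genes whose symbol starts with Pex and a number, here the biogenesis genes, and 16 listed enzymes and transporters, here the oxidation genes. All 32 were in the deposited mRNA table of 22552 genes, and the rule itself uses names and no measured value, although it was drawn up with earlier results of these data known. Tissue came from mice of genotype mmu-mir-193b -/- (Null), which lack the linked microRNAs miR-193b and miR-365-1, and from mice of genotype mmu-mir-193b +/+ (WT). Both genotypes were of strain 129SV::FVB/N::C57BL/6 and 2 months old. Per the labels' protocols, the breeding started from females with an MMTV-Cre transgene and a floxed miR-193b allele, and the transgene was bred out. There were 3 Null and 3 WT mRNA libraries, and 1 Null and 1 WT microRNA library. The authors deposited a single combined mRNA column per genotype, called here the Null pool and the WT pool, so no value has an SD and no difference has a replicate check or a test.

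Peroxisomes are small organelles bounded by a single membrane, and they are abundant in brown fat. Proteins called peroxins, encoded by Pex genes, insert their membrane proteins, import folded enzymes from the cytosol and help the organelle divide. Their enzymes shorten very long chain fatty acids and degrade branched chain fatty acids, and the shortened products leave as carnitine esters or free acids for the mitochondria. Many genes of this oxidation pathway are textbook targets of the nuclear receptor PPARα.

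The microRNA table was used to check the genotype. miR-193b-3p was at 11.5 in the Null library, against 3705 in the WT library, in values headed RPM. miR-193b-5p was at 0.0821 in Null and 37.9 in WT, and miR-365-1-5p was at 0.0821 in Null and 11.8 in WT. miR-365-3p, which a copy outside the deleted cluster also makes, was at 798 in Null and 1442 in WT. The deleted strands are shown because they define the Null genotype, with the seed (bases 2 to 8) in capitals. All 4 are transcribed from the plus strand of mouse chromosome 16, and the sequences are from RefSeq on build GRCm38.p6.
miR-193b-3p: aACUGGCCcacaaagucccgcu
miR-193b-5p: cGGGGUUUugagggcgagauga
miR-365-1-5p: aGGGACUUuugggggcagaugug
miR-365-3p: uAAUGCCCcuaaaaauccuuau

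The tissue label was checked against marker lists in the mRNA table. Of 11 brown fat markers, 0 were at 0 in both pools, and Ucp1, the uncoupling protein of brown fat, was at 2487 FPKM in the Null pool and 3016 FPKM in the WT pool. The 11 summed to 21775 FPKM in Null and 14820 FPKM in WT, with 6 lower and 5 higher in Null. The 6 markers of all fat summed to 40410 FPKM in Null and 31360 FPKM in WT, with 2 lower and 4 higher in Null. FPKM are fragments scaled by transcript length and by the mapped fragments of a library. The 10 skeletal muscle markers summed to 2190 FPKM in Null and 2893 FPKM in WT, with 8 of 10 lower in Null. The 7 macrophage markers in the table summed to 150 FPKM in Null and 98.7 FPKM in WT, and the 4 red cell markers to 349 FPKM in Null and 113 FPKM in WT. Liver and kidney are rich in peroxisomes. The 7 liver markers summed to 61.7 FPKM in Null and 65.8 FPKM in WT, of which Cyp2e1 made 53.2 FPKM in Null and 64.7 FPKM in WT. Apoa2 was at 5.84 FPKM in Null and 0.101 FPKM in WT, Apoa1 was at 2.07 FPKM in Null and 0.393 FPKM in WT, and the other 4, the albumin gene Alb among them, were under 1 FPKM in both pools. All 5 kidney markers were under 1 FPKM in both pools. The part of these other cells in the results below was not tested. In bulk tissue, fewer cells of a type and less RNA per cell cannot be told apart.

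Most peroxisomal members were expressed at moderate to high levels in both pools. Of the 32, 31 had a mean of at least 1 FPKM over the pools, the level required for a gene to be compared, and 19 of these 31 lay in the top 20% of the 11597 genes at that level. The biogenesis genes had a median of 38.3 FPKM in Null and 43.4 FPKM in WT. The oxidation genes had a median of 32.8 FPKM in Null and 41.7 FPKM in WT. These medians of the 2 groups lay close together, although 5 oxidation genes and 2 biogenesis genes were in the top 10% of genes. Below the median gene by mean level lay 3 biogenesis genes and 0 oxidation genes. The exception below 1 FPKM was Pex5l, at 0.321 FPKM in Null and 0.347 FPKM in WT. Its name matches the rule, but it is known as a partner of ion channels in neurons rather than as a peroxin.

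**Figure D1:**
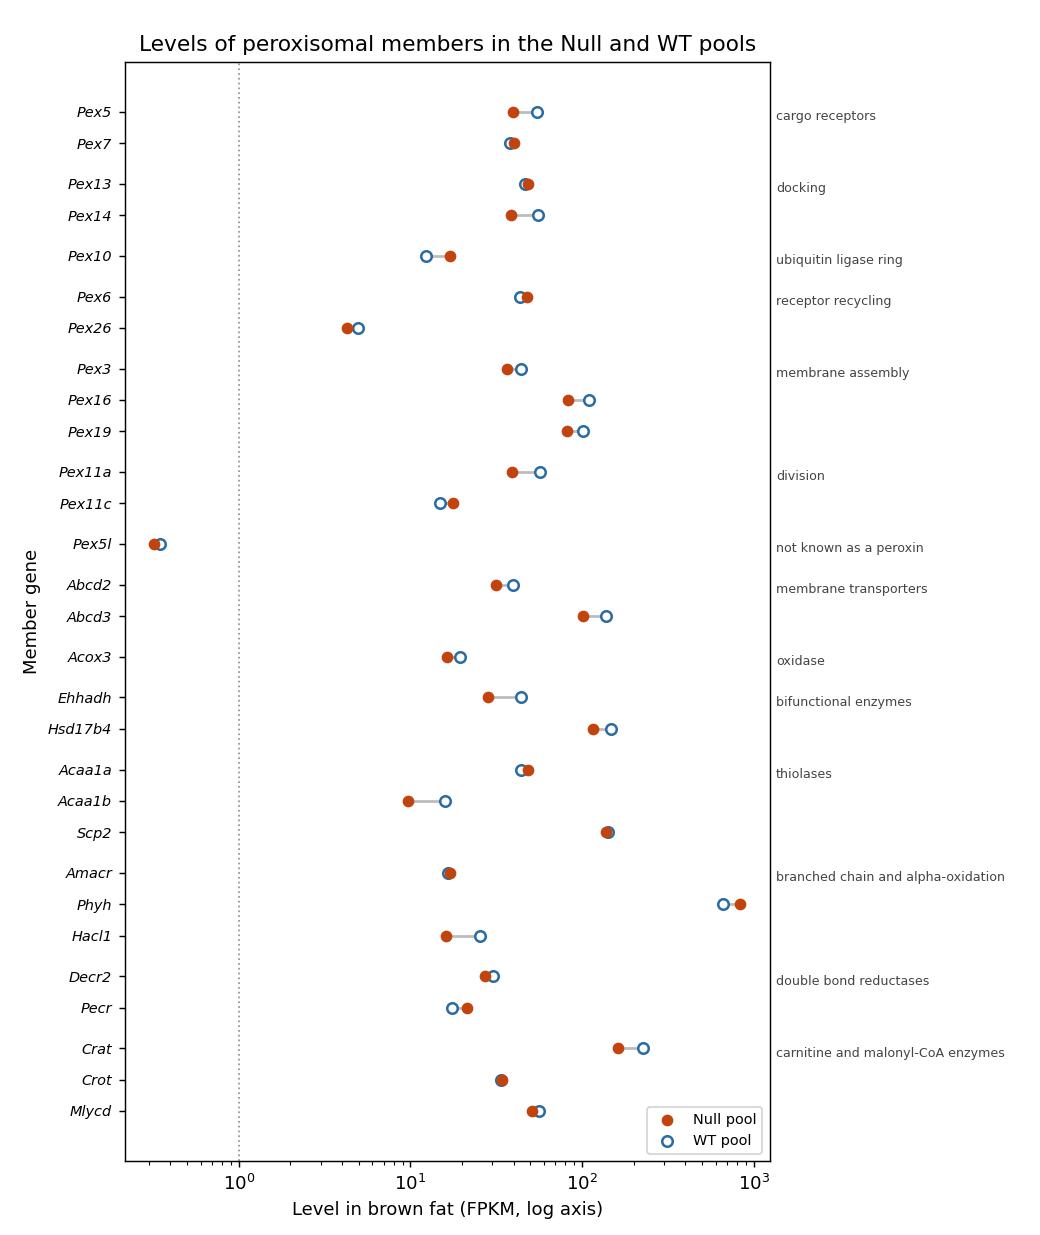
Levels of 29 of the 32 member genes in the Null pool (filled points) and the WT pool (open points), in FPKM on a log axis, with 1 row per gene and the genes grouped by role. Phyh sits far to the right of all others at 835 FPKM in Null and 660 FPKM in WT, and Pex5l alone lies left of the dotted line at 1 FPKM.

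No biogenesis gene differed by 1.5-fold or more between the pools, and 3 oxidation genes did, all lower in Null. Differences are given as the log2 ratio of Null over WT after adding 1 FPKM to each, a scale that understates the change of low genes. Over all 11597 genes compared, 14.6% differed by 1.5-fold or more, 6.75% being lower and 7.87% higher in Null. The 3 called members of 31 therefore lay near that background. Most members were nevertheless on the lower side, with 10 of 15 biogenesis genes and 11 of 16 oxidation genes below 0, against 49.4% of all genes. The median log2 ratio was -0.17 for biogenesis genes, -0.20 for oxidation genes and 0.01 for all genes. The middle 50% of biogenesis genes ran from -0.35 to 0.06 and that of oxidation genes from -0.44 to 0.03, overlapping for most of their length. The 2 groups of members thus had like medians and like spreads, and their difference was not tested.

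Scaling mattered for the size of these values. The columns sum to 590327 FPKM in Null and 508701 FPKM in WT, and rescaling both to the same total moved the median of all genes to -0.19. Under this rescaling the medians were -0.38 for biogenesis and -0.42 for oxidation genes, which is -0.19 and -0.23 relative to all genes. There, 4 of 15 biogenesis genes (Pex5, Pex14, Pex16 and Pex11a) and 5 of 16 oxidation genes (Abcd3 and Crat besides the 3 above) passed 1.5-fold, all lower in Null, as did 15.8% of all genes in that direction. Quantile normalization, which gives both pools the same distribution, gave 2 and 5, again all lower, against 6.99% of all genes lower by that much. The share of all 1.5-fold calls that were higher in Null was 22.4% with the rescaling, against 53.8% as deposited. The 21 members that were lower as deposited were also lower under each of the 6 other settings that kept them. Of these members only Pex26 was dropped by one, the filter at 5 FPKM. Only quantile normalization could have reversed a lower member, so the agreement of the other settings was fixed in advance. A pseudocount cannot change a sign, filters leave values as they are, and the rescaling and the median ratio set to 1 lower ratios. Pex10, Pex11c and Pecr were higher under all 6, and 7 changed sign under at least 1 setting.

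**Figure D2:**
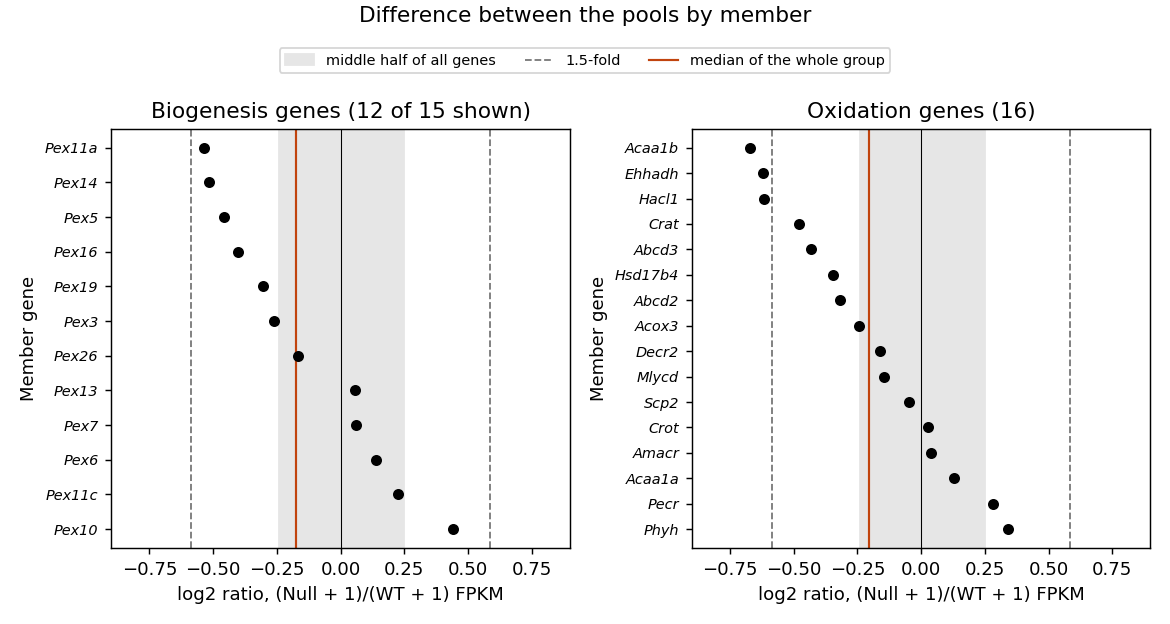
Log2 ratio of Null over WT for 12 of the 15 compared biogenesis genes (left) and 16 oxidation genes (right), each ordered from lowest to highest. Grey marks the middle 50% of all genes, dashed lines mark 1.5-fold, and the orange line is the median of the whole group, at -0.17 (left) and -0.20 (right); only Acaa1b, Ehhadh and Hacl1 lie beyond a dashed line.

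The 3 biogenesis genes that insert membrane proteins were all lower in Null, and Pex16 and Pex19 were the most abundant peroxins in the table. Pex16, the membrane anchor of this step, was at 83.0 FPKM in Null and 110 FPKM in WT, a log2 ratio of -0.40. Pex19, the cytosolic chaperone of peroxisomal membrane proteins, was at 81.4 FPKM in Null and 101 FPKM in WT (-0.31). Pex3, the docking factor for Pex19, was at 36.4 FPKM in Null and 43.8 FPKM in WT (-0.26). All 3 stayed within 1.5-fold, and under the rescaling Pex16 passed it at -0.62.

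The import machinery was split in direction. Pex5, the receptor for enzymes with a C-terminal targeting signal, was at 39.5 FPKM in Null and 54.6 FPKM in WT (-0.46). Pex7, the receptor for the rarer N-terminal signal, was at 39.999 FPKM in Null and 38.3 FPKM in WT (0.06). The transcript level of Pex5 over that of Pex7 was thus 0.987 in Null and 1.43 in WT, a ratio within each pool that no scaling of whole columns alters. At the membrane, the docking partners Pex14 and Pex13 showed the same pattern: Pex14 was at 38.3 FPKM in Null and 55.3 FPKM in WT (-0.52), while Pex13 was at 48.2 FPKM in Null and 46.4 FPKM in WT (0.06). The values of Pex7 and Pex13 changed sign under the rescaling, to -0.15 and -0.16.

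Peroxins that ubiquitinate and recycle the import receptor included Pex26, the least abundant of the 31 members compared. Pex10, a ring-finger ubiquitin ligase, was at 17.0 FPKM in Null and 12.3 FPKM in WT, and its log2 ratio of 0.44 was the highest of any member. Another ligase of this complex, Pex2, is listed under its older symbol Pxmp3 and so does not match the rule. Looked up after the other values were known, it was at 59.9 FPKM in Null and 40.5 FPKM in WT (0.55). Of the ATPases that pull the receptor out of the membrane, Pex6 was at 47.9 FPKM in Null and 43.4 FPKM in WT (0.14, and -0.07 under the rescaling). Pex26, the membrane anchor of these ATPases, was at 4.29 FPKM in Null and 4.94 FPKM in WT (-0.17). Pex6 transcripts therefore exceeded those of Pex26 by 11.2 times in Null and 8.79 times in WT, per unit of length.

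Genes of the Pex11 family, which elongate peroxisomes before they divide, differed in direction among themselves. Pex11a, the member known to be inducible through PPARα, was at 39.0 FPKM in Null and 57.0 FPKM in WT, and its log2 ratio of -0.54 was the lowest of the biogenesis genes. Pex11c, an older symbol of Pex11g, was at 17.6 FPKM in Null and 14.9 FPKM in WT (0.23).

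Fatty acids enter the peroxisome through half-transporters of the Abcd family, and both listed ones were lower in Null. Abcd3, which carries branched chain and dicarboxylic acyl-CoA, was at 102 FPKM in Null and 138 FPKM in WT (-0.43). Abcd2, which carries very long chain and polyunsaturated acyl-CoA, was at 31.5 FPKM in Null and 39.5 FPKM in WT (-0.32). Neither passed 1.5-fold as deposited, whereas Abcd3 did under the rescaling (-0.65) and under quantile normalization (-0.59).

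The core steps of peroxisomal beta-oxidation were lower in Null except for a thiolase. Acox3, an oxidase of branched chain acyl-CoA, was at 16.3 FPKM in Null and 19.5 FPKM in WT (-0.24). Ehhadh, the L-bifunctional enzyme and a classical PPARα target, was at 28.3 FPKM in Null and 44.2 FPKM in WT, a log2 ratio of -0.62. Hsd17b4, the D-bifunctional enzyme that handles most very long and branched chain substrates, was at 116 FPKM in Null and 147 FPKM in WT (-0.34). Hsd17b4 transcripts thus exceeded those of Ehhadh by 4.08 times in Null and 3.33 times in WT. The thiolases cleave the chain in the last step. Scp2, which yields a thiolase for branched chains and a sterol carrier protein, was at 138 FPKM in Null and 143 FPKM in WT (-0.05).

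Acaa1a and Acaa1b encode near-identical copies of the straight chain thiolase, so the split of reads between them is uncertain. Acaa1b was at 9.62 FPKM in Null and 15.9 FPKM in WT, and its log2 ratio of -0.67 was the lowest of all members. Acaa1a was at 48.2 FPKM in Null and 44.0 FPKM in WT (0.13, and -0.08 under the rescaling). The copies lie on chromosome 9 in the RefSeq annotation, with 4 starts of other protein-coding genes between them. Acaa1a over Acaa1b was 5.0 in Null and 2.76 in WT.

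Genes of alpha-oxidation, which shortens phytanic acid from the diet by a single carbon, gave the widest contrast among the oxidation genes. Phyh, the hydroxylase of the first step, was the most abundant member at 835 FPKM in Null and 660 FPKM in WT, at percentile 99.1 of all genes by its mean. Its log2 ratio was 0.34, 0.13 under the rescaling and -0.02 under quantile normalization. Hacl1, the lyase of the next step, was at 16.2 FPKM in Null and 25.3 FPKM in WT, a log2 ratio of -0.62. Amacr, the racemase that readies the products for beta-oxidation, was at 17.1 FPKM in Null and 16.6 FPKM in WT (0.04, and -0.17 under the rescaling). Phyh alone carried 50.5% of the summed FPKM of the oxidation genes in Null and 39.8% in WT. With Phyh, that sum was 1654 FPKM in Null and 1657 FPKM in WT. Without it, the 15 other genes summed to 819 FPKM in Null and 997 FPKM in WT, a log2 ratio of -0.28.

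The auxiliary enzymes were mixed. Decr2, a reductase for unsaturated chains, was at 27.1 FPKM in Null and 30.5 FPKM in WT (-0.16), while Pecr, another enoyl-CoA reductase, was at 21.5 FPKM in Null and 17.5 FPKM in WT (0.28). Crat, the carnitine acetyltransferase that exports acetyl units and also works in mitochondria, was at 163 FPKM in Null and 227 FPKM in WT (-0.48). It is known to be abundant in skeletal muscle, whose markers were lower in Null (given above), and their part in its value was not tested. Crot, the carnitine octanoyltransferase, was at 34.1 FPKM in Null and 33.5 FPKM in WT (0.03, and -0.19 under the rescaling). Crat over Crot was accordingly 4.76 in Null and 6.77 in WT. Mlycd, which breaks down malonyl-CoA in several compartments, was at 50.9 FPKM in Null and 56.4 FPKM in WT (-0.14).

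For the 3 members past 1.5-fold, and for Acaa1a beside its copy, the 250 bases before the transcription start are shown. The sequences are from RefSeq on build GRCm38.p6, whereas the submitters' processing notes name mm9. Each is written 5′ to 3′ on the gene's own strand, with matches to GGGCGG (a GC box) and CCAAT in capitals on either strand (CCGCCC and ATTGG on the other). The windows are chr16:21787835-21788084 on the minus strand for Ehhadh and chr14:31640966-31641215 on the minus strand for Hacl1. Those of the thiolases are chr9:119157094-119157343 on the minus strand for Acaa1b and chr9:119341044-119341293 on the plus strand for Acaa1a.
Ehhadh: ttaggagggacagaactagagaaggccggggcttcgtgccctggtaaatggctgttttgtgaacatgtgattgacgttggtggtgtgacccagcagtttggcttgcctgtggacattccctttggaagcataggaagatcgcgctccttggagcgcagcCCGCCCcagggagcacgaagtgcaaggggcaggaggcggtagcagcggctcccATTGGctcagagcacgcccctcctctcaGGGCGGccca
Hacl1: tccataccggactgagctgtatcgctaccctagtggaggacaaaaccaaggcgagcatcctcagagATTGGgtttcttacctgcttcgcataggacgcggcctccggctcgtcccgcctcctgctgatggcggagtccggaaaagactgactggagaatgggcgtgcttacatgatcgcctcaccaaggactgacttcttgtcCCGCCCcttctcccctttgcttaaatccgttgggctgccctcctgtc
Acaa1b: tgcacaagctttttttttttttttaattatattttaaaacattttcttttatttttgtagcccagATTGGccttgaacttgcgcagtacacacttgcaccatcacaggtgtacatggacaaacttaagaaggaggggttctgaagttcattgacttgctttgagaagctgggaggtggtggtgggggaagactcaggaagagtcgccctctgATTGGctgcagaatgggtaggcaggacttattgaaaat
Acaa1a: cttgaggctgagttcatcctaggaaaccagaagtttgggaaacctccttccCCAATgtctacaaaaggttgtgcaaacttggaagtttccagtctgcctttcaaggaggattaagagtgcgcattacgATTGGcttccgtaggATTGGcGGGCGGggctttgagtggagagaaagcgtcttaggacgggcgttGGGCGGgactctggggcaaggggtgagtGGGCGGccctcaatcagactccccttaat

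The windows of Acaa1b and Acaa1a shared 148 identical bases of 250 when aligned end to end with gaps allowed. No other pair of windows was aligned, so whether this exceeds the identity of unrelated windows was not tested. Acaa1a had 3 GC boxes in its window and a GC content of 53.6%, while Acaa1b had 0 GC boxes and a GC content of 41.6%. Ehhadh had 2 GC boxes and Hacl1 had 1. Of the members, 23 of 32 matched the promoter table, with 27 windows. A GC box was in 16 of these 27 windows (59.3%), against 32.7% of all 32851 windows. By group it was in 8 of 14 windows of biogenesis genes and 8 of 13 of oxidation genes. The median GC content was 58.8% for members and 52.4% for all windows. The element through which PPARs bind, 2 copies of AGGTCA in the same direction with 1 base between them, was searched on both strands. An exact copy was in 0 of 27 member windows and in 11 of all windows (0.0335%). With up to 2 mismatches it was in 0 of 27 member windows, against 3.24% of all windows. A single AGGTCA, which an exact element contains but one with mismatches need not, was in 2 of 27 member windows, those of Pex11c and Scp2, against 14.0% of all windows. The element of 2 copies was absent only from these windows, which says nothing of binding elsewhere. At a share of 3.24% of all windows, 27 windows are too few to read its absence as a trait of the members.

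A list of other peroxisomal genes was set beside the members. Of its 56 symbols 54 were in the table and 46 were compared, with 27 lower, 19 higher and a median log2 ratio of -0.07. By 1.5-fold or more, 4 were lower and 1 was higher in Null, 5 of 46 against the background of 14.6%. The lowest was Pmvk, a kinase of the mevalonate pathway, at 87.3 FPKM in Null and 193 FPKM in WT (-1.14). Also lower was Idi1, a later enzyme of the mevalonate pathway, at 0.790 FPKM in Null and 1.82 FPKM in WT (-0.66). Nudt12, a hydrolase of nicotinamide dinucleotides, was at 16.4 FPKM in Null and 25.9 FPKM in WT (-0.63). The higher one was Pxmp2, a pore of the peroxisomal membrane, at 36.1 FPKM in Null and 16.1 FPKM in WT (1.12).

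The most abundant of these other genes were Ech1, Prdx5 and Sod1. Ech1, an isomerase of unsaturated acyl-CoA, was at 1765 FPKM in Null and 1899 FPKM in WT (-0.11). Prdx5, a peroxiredoxin, was at 912 FPKM in Null and 671 FPKM in WT (0.44), and Sod1, the cytosolic superoxide dismutase, at 735 FPKM in Null and 592 FPKM in WT (0.31). Named after its value was seen, catalase (Cat) was at 341 FPKM in Null and 375 FPKM in WT (-0.14). None of the 5 genes of plasmalogen synthesis, the ether lipid pathway that starts in peroxisomes, differed by 1.5-fold, against 14.6% of all genes. Their range was -0.21 to 0.26, with Gnpat, the acyltransferase of the first step, at 139 FPKM in Null and 146 FPKM in WT. Tmem189, the desaturase of the last step, was at 12.05 FPKM in Null and 14.1 FPKM in WT, and Agps, which forms the ether bond, at 7.95 FPKM in Null and 7.66 FPKM in WT.

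Of 12 regulators of peroxisomal genes, 9 were lower and 3 higher, with a median log2 ratio of -0.18. Ppara, which encodes PPARα, was at 41.2 FPKM in Null and 71.9 FPKM in WT (-0.79). Its partner receptor Rxra was at 13.1 FPKM in Null and 22.0 FPKM in WT (-0.71), and the corepressor Nrip1 at 1.89 FPKM in Null and 3.67 FPKM in WT (-0.69). These 3 of 12 passed 1.5-fold, against 6.75% of all genes in that direction. Under the rescaling their median was -0.39, against -0.19 for all genes, and all 12 were lower, as were 69.4% of all genes. There, 4 of 12 passed 1.5-fold, against 15.8% of all genes in that direction. The abundant regulators Pparg, at 237 FPKM in Null and 233 FPKM in WT (0.03), and Esrra, at 94.9 FPKM in Null and 85.5 FPKM in WT (0.15), did not. Whether the levels of these regulators bear on those of the members was not tested.

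Mitochondrial counterparts showed where the peroxisomal genes stood. The 18 genes of mitochondrial beta-oxidation had a median level of 563 FPKM in Null and 599 FPKM in WT, far above the 32.8 FPKM in Null and 41.7 FPKM in WT of the peroxisomal oxidation genes. Their median log2 ratio was -0.11, with 12 of 18 lower, against -0.20 for the peroxisomal enzymes. It was -0.33 under the rescaling and -0.40 under quantile normalization, against -0.42 and -0.24 for the peroxisomal enzymes. Etfb, a subunit of the electron acceptor of the acyl-CoA dehydrogenases, was the most abundant at 2544 FPKM in Null and 1587 FPKM in WT (0.68). Etfdh, which passes those electrons on to ubiquinone, was at 301 FPKM in Null and 482 FPKM in WT (-0.68). These were the 2 of 18 past 1.5-fold, against 14.6% of all genes in either direction. The thiolase Acaa2 was at 1769 FPKM in Null and 1778 FPKM in WT (-0.01), and the dehydrogenase Acadl at 1652 FPKM in Null and 1622 FPKM in WT (0.03). The 20 Tomm and Timm genes, the mitochondrial import machinery, were higher in Null for 17 of 20 genes, at a median of 0.23 on the log2 scale, whereas 5 of 15 peroxins were higher, at a median of -0.17. Tomm7 (0.72), Timm8a1 (0.68), Tomm5 (0.63) and Timm8b (0.59) passed 1.5-fold, which is 4 of 20 against 7.87% of all genes in that direction, and 0 of 15 peroxins did. Under the rescaling 0 of 20 passed it, against 4.56% of all genes in that direction, and the median was 0.01, against -0.38 for the peroxins. With quantile normalization 1 of 20 passed, against 7.29% of all genes in that direction, and the median was 0.13, against -0.13 for the peroxins. The most abundant were Timm8b, at 381 FPKM in Null and 253 FPKM in WT, Timm17a, at 145 FPKM in Null and 127 FPKM in WT, and Timm13, at 156 FPKM in Null and 114 FPKM in WT. The difference between the lists was not tested. Ratios also moved with the genomic size of genes (given below), all genes under 5 kb having a median of 0.27. The sizes of the genes in these lists were not compared.

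**Figure D3:**
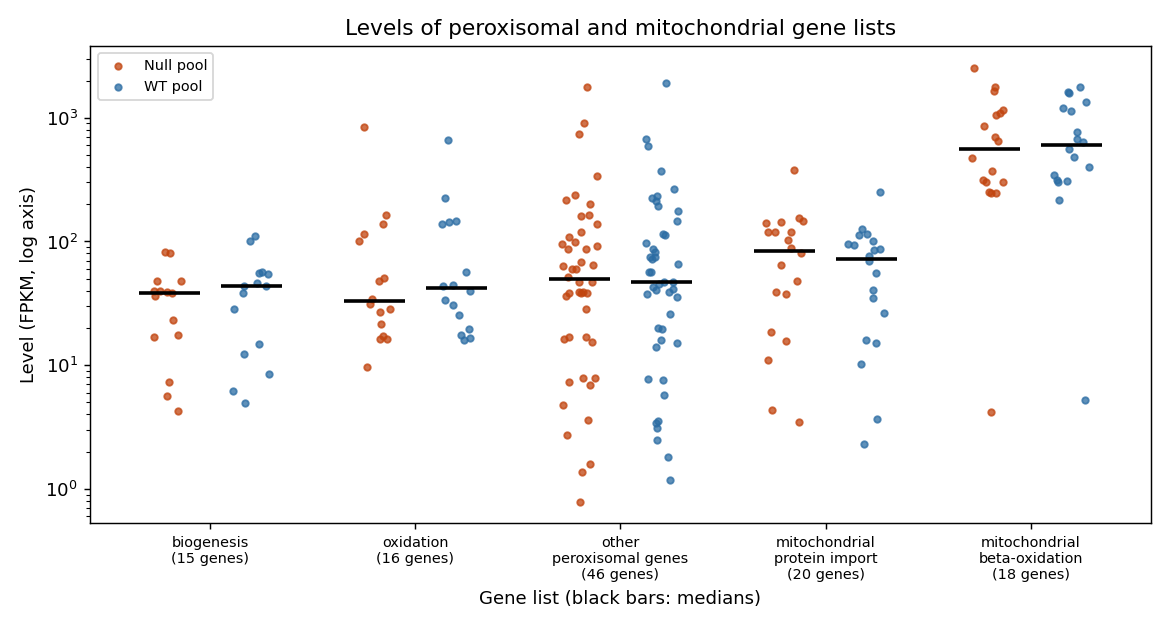
Levels in FPKM on a log axis of the compared genes of 5 lists, with the Null pool on the left and the WT pool on the right of each pair and black bars for medians. The medians of both groups of peroxisomal members lie between 32.8 and 43.4 FPKM, and those of mitochondrial beta-oxidation are 563 FPKM in Null and 599 FPKM in WT.

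Ratios in these pools moved with the genomic size of genes. Genomic span, the length of a gene with its introns in the RefSeq annotation, was known for 99.3% of the genes compared. Genes with a span under 5 kb had a median log2 ratio of 0.27, those of 20 to 40 kb a median of -0.03 and those of 80 kb or more a median of -0.15. Over 11518 genes Spearman's rho between span and log2 ratio was -0.31, a correlation across genes that share both pools. Over the 31 members it was -0.14. The 7 members of 5 to 10 kb had a median of -0.31, against 0.10 for all 1517 genes of that span. Of these 7, 5 were lower, among them Pex11a, Acaa1b and Pex16, while Pex10 and Acaa1a were higher. The 9 members of 10 to 20 kb had a median of 0.04, against 0.03 for all genes of that span. The 7 members of 20 to 40 kb had a median of -0.24, against -0.03. The 5 members of 40 to 80 kb had a median of -0.32, against -0.10 for all genes. The 2 members of 80 kb or more had a median of -0.28, against -0.15. Under 5 kb there was 1 member, not reported singly. Span is not the length of the mRNA, which was not used here, and its part in the differences was not tested.

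**Figure D4:**
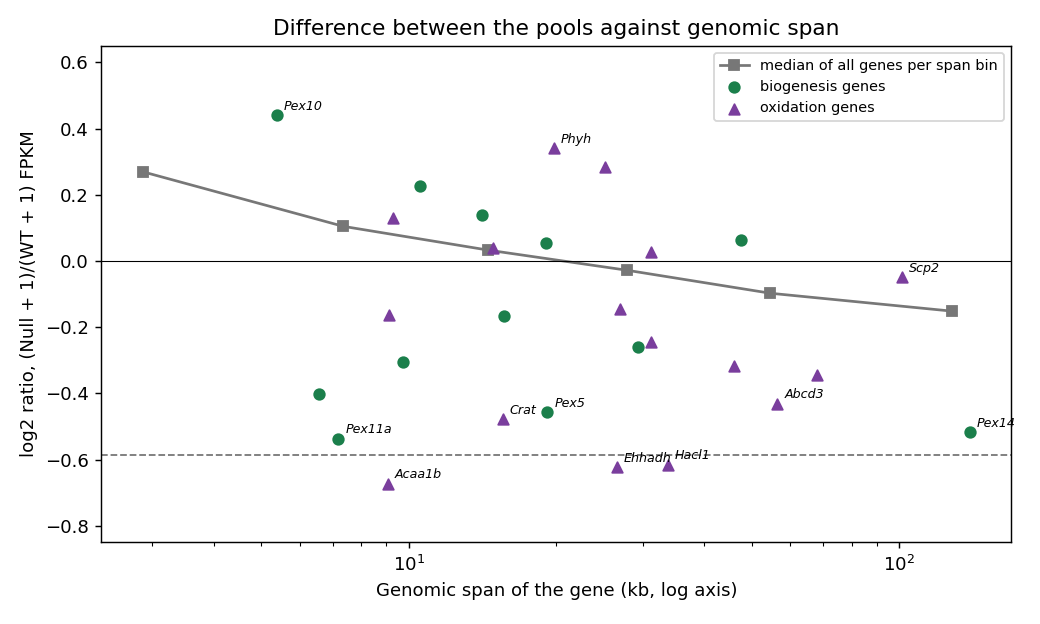
Log2 ratio of Null over WT against genomic span in kb (log axis) for 12 biogenesis genes (circles) and 16 oxidation genes (triangles), with squares for the median of all genes in 6 span bins. The medians of all genes run from 0.27 in the shortest bin to -0.15 in the longest. Among short genes, Pex11a and Acaa1b lie well below the line and Pex10 lies above it.

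For 8 of the 32 members the span overlaps that of another protein-coding gene in the annotation, and the sources used here do not say whether strand was counted. Where the table lists the partner, it was lower than the member for Pex13, Pex3, Pex11a, Acaa1b and Crat.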

How the data were processed

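Per the labels' protocols, poly(A) RNA of brown adipose tissue was sequenced after a TruSeq preparation, and small RNA after an Illumina small RNA kit. Per the submitters' processing notes, mm9 was the build and DESeq, edgeR, BWA, TopHat and CASAVA were among the tools. Their roles and versions, the annotation and any filter were not stated there. The authors deposited mRNA levels as FPKM, with 1 column per genotype for 3 libraries, and how these were combined is not given. Depth is unknown, because the values combine libraries and come without gene lengths. The microRNA values deposited by the authors are headed RPM but sum to 1578515 in Null and 1559381 in WT, so they were treated as a signal and used only to check the genotype.

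Here log2((Null + 1)/(WT + 1)) was computed for 11597 genes that averaged at least 1 FPKM over the pools, and 1.5-fold or more was counted as a difference. No test was possible. Counts and medians cover every member compared, but 3 biogenesis genes and 2 genes of a further list are not reported singly. A gene listed at 0 may be one that could not be estimated. The rule for named genes was every member and, from each further list, those past 1.5-fold and the 3 most abundant, apart from the genes just given as not reported singly. The members, lists and thresholds were chosen with earlier results of these data known. Alternatives were a pseudocount of 0.1 FPKM, no filter, a mean of at least 5 FPKM, columns rescaled to the same total of 1000000, a median ratio set to 1 and quantile normalization. The calculation was tested on simulated data. Python 3.11.15, pandas 2.3.3, numpy 2.4.6, scipy 1.17.1 and Biopython 1.88 were used. Promoters and spans are from RefSeq (GRCm38.p6).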

Additional observations from a re-analysis of the deposited data

How the results depend on the processing

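No member that passed 1.5-fold lost that call or its direction under the 6 other settings, and 175 of 185 values of single members kept their side of 1.5-fold. For these lower members only quantile normalization could have undone the call. The smaller pseudocount enlarges a ratio, and the rescaling and the median ratio set to 1 lower it. Of the 185 values, 31 with no filter and 30 with the filter at 5 FPKM were unchanged by construction. The median log2 ratio of biogenesis genes (-0.17) was -0.20 with a pseudocount of 0.1 FPKM, -0.22 with a mean of at least 5 FPKM, -0.38 with columns rescaled to the same total, -0.18 with the median ratio set to 1 and -0.13 with quantile normalization. That of oxidation genes (-0.20) was -0.21 with the pseudocount of 0.1, -0.42 rescaled, -0.21 with the median ratio set to 1, -0.24 with quantile normalization and -0.24 without Phyh, a choice made after seeing the data. That of other peroxisomal genes (-0.07) was -0.040 with no filter, -0.28 rescaled and -0.19 with quantile normalization. Biogenesis genes past 1.5-fold numbered 4 rescaled and 2 with quantile normalization, against 0, and oxidation genes 5 in both settings, against 3; all were lower in Null. The rescaling shifts every ratio by -0.21 by its construction, before the pseudocount; for the other settings the cause was not tested. The count of all genes past 1.5-fold (1696) ran from 1257 with a mean of at least 5 FPKM to 2366 rescaled. No paired analysis was possible because the table holds 1 column per genotype, and leaving out a library was not run for the same reason. Depth is unknown, so low members such as Pex26 and Pex5l have no stated precision.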
